A study of Saccharomyces cerevisiae with 14 samples.

Results

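Chromosome XV was followed through array comparative genomic hybridization (aCGH) of 13 TAQed yeast strains and of their parent, the control strain WT14. The stretch described is all of the chromosome more than 20 kb from both ends, without the bases from 721900 to 722700, and it was read by 5206 of the 59133 nuclear array positions, or of 5354 on chromosome XV. Positions 20253 to 1071114 of genome build sacCer2 were covered, with 1516 array positions left of the centromere near 326700 and 3690 right of it, at a median spacing of 194 bases. The right chromosome end was taken as the last array position, which ends at 1091184.

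The 13 TAQed strains, each grown from one isolate with small colonies and altered cell shape, were strains 1, 73, 76, 81 and 83 on slide 1, and strains 84, 97, 101 and 106 as well as 107, 113, 117 and 119 on slide 2. They descend from WT14 carrying a vector for TaqI, a restriction endonuclease that cuts DNA at TCGA, which was expressed under Cu2+ and activated for 30 min at 42 °C. WT14 is a MATa/a diploid made by cell fusion of YPH499 and S799. YPH499 descends from S288C and carries mutant alleles of ADE2, HIS3, LEU2, LYS2, TRP1 and URA3, and S799 descends from SK1 and carries arg4-bgl, cyh2-z, ho::LYS2, leu2Δ, lys2 and ura3. WT14 thus holds one homologue of chromosome XV from each parent, and the TAQed strains derive from it. The label text on treatment is the same for WT14 as for the TAQed strains, whereas the study describes WT14 as the control without TaqI activation. For all 14 samples the labels give growth at 30 °C for 24 h and 100 ng of labelled DNA. Each TAQed strain was hybridized once, in Cy5, against WT14 DNA in Cy3, and 1 array compared WT14 with itself. There were no replicates and no dye swap, so a difference between arrays measures strains and hybridizations together.

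A budding yeast chromosome carries a single centromere, a short sequence on which the kinetochore assembles, and ends in telomeres preceded by repeated subtelomeric sequence. The right arm of chromosome XV is the longer one and the left arm the shorter: 379 and 166 protein-coding genes carry locus tags of the right and the left arm in the annotation of another build, used only for names. ADE2 and HIS3, enzymes of adenine and histidine synthesis for which YPH499 carries mutant alleles, have locus tags of the right arm, as have RAS1, a GTPase of the cAMP pathway, and PDR5, a multidrug exporter. TOP1, the type I DNA topoisomerase, has a tag of the left arm. No annotation of the array's build was used, so no gene is placed inside or outside a changed stretch. In a diploid, aCGH reads the sum of both homologues: loss of one of 2 copies lowers the log2 ratio of Cy5 over Cy3 to -1, and gain of one copy raises it to 0.58. Where one homologue is replaced by a second copy of the other, the sum stays the same, and only positions that match the parents unequally can move.

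The array of strain 81 stood apart in brightness. Its median Cy5 signal over chromosome XV was 28, against 159 to 281 on the other 13 arrays, and 1077 of its 5366 spots there were not well above background in both channels, against at most 1 on any other array. The noise SD between neighbouring positions was 0.19 on the array of strain 81 and between 0.11 and 0.13 on the others. WT14 lay on slide 1 with 5 TAQed strains, and slide 2 held the other 8.

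Strain 81 alone had a raised right arm. Its right-arm median was 0.61 and its left-arm median -0.09 on the log2 scale. In the other 12 TAQed strains the right arm lay between -0.01 and 0.10 and the left arm between -0.07 and 0.00, against -0.01 and 0.01 in WT14 for the right and the left arm. The bars in the plot of arm levels, each as long as the interquartile range over positions, overlapped between the arms in every array except that of strain 81.

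**Figure D1:**
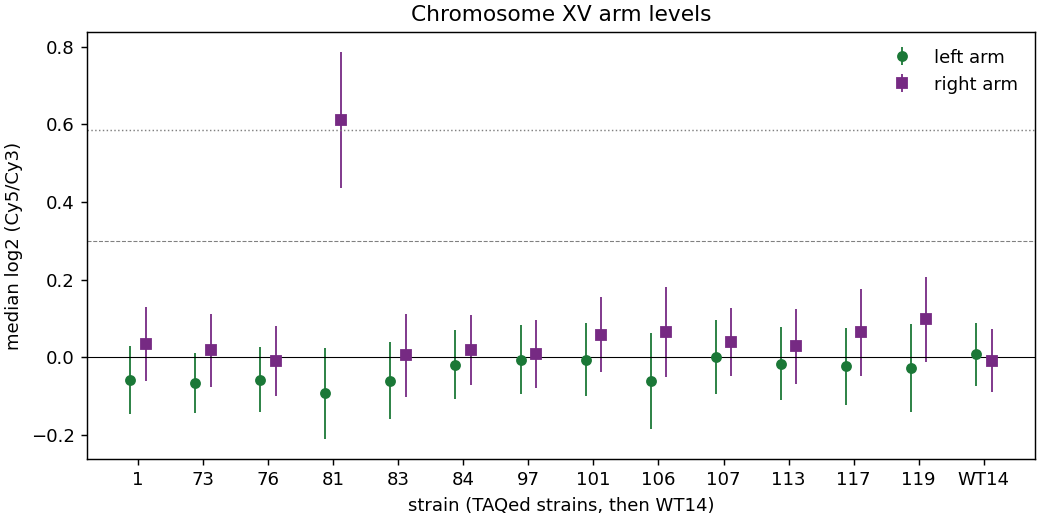
Median log2 ratio of Cy5 over Cy3 on the left arm (circles) and the right arm (squares) of chromosome XV in 13 TAQed strains and WT14, with bars as long as the interquartile range over array positions, centred on the median. The dashed line marks the calling threshold of 0.3 and the dotted line the ratio for 1 gained copy, 0.58. The right arm of strain 81 at 0.61 is the only arm above the threshold.

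A smaller difference between the arms had one direction. The WT14 array, against which it is set, held the same DNA in both channels, so no difference in copy number could appear there. The right arm was above the left in 13 of 13 TAQed strains, by 0.12 ± 0.18 on average (SD, n = 13), whereas WT14 had a right minus left difference of -0.02. Without strain 81 the mean was 0.07 ± 0.04 (SD), with strain 97 lowest at 0.01 and strain 106 highest at 0.13. The left arm averaged -0.04 ± 0.03 in the TAQed strains and was 0.01 in WT14, below WT14 in 13 of 13 strains. The right arm averaged 0.08 ± 0.16 in the TAQed strains and was -0.01 in WT14, above WT14 in 12 of 13 strains. Without strain 81 the right arm averaged 0.04 ± 0.03 (SD). None of these passed a test: the exact two-sided permutation test of 13 strains against 1 array gave p = 0.143 for the right minus left difference, p = 0.143 for the left arm and p = 0.214 for the right arm, and the design allows no p below 0.0714.

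The left-arm level also moved with the slide. TAQed strains on slide 1 averaged -0.07 ± 0.02 (SD, n = 5) and those on slide 2 averaged -0.02 ± 0.02 (SD, n = 8), an exact two-sided permutation p = 0.00311, adjusted p = 0.00932 over the 3 arm measures compared. Without strain 81 the means were -0.06 on slide 1 and -0.02 on slide 2 (exact permutation p = 0.00808). The right arm without strain 81 averaged 0.01 on slide 1 and 0.05 on slide 2 (exact permutation p = 0.0566). With strain 81 it averaged 0.13 and 0.05 (exact permutation p = 0.535). The right minus left difference was 0.20 ± 0.28 on slide 1 and 0.07 ± 0.04 on slide 2 (exact permutation p = 0.16), and without strain 81 it was 0.07 on both slides. On slide 1 alone, which held WT14, the mean left arm of the 5 TAQed strains minus WT14 was -0.07, and their right minus left difference lay 0.21 above that of WT14. The part of the slide in these levels was not tested further.

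In bins of 50 kb, the ratio followed a shallow arch along the chromosome in 8 of the 10 TAQed strains without a long changed stretch, with its highest bin between 450001 and 700000 and its lowest in the leftmost bin or in one of the 2 rightmost. Strain 119 had -0.21 in the leftmost bin, 0.18 between 650001 and 700000, and -0.26 in the rightmost bin. Strain 106 had -0.29 in the leftmost bin, 0.14 between 550001 and 600000, and -0.29 in the rightmost. Strain 97 ran between -0.03 and 0.03 and WT14 between -0.03 and 0.04, so both were flat at this scale. Strain 113, the other exception, had its highest bin in the same span as the 8, with 0.10 between 450001 and 500000. Its lowest bin, at -0.06, lay between 950001 and 1000000. It was at 0.07 in the leftmost bin and at 0.00 in the rightmost. The range over bins was 0.06 in strain 97, 0.16 in strain 113 and 0.44 in strain 119, the widest of the 10, against 0.07 in WT14.

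**Figure D2:**
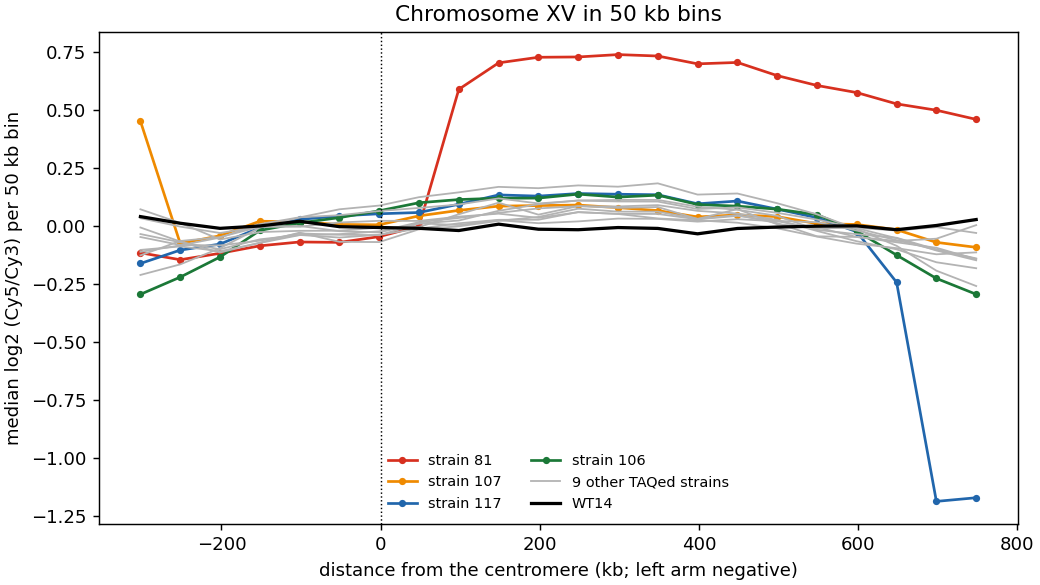
Median log2 ratio of Cy5 over Cy3 in 50 kb bins of chromosome XV, plotted by distance from the centromere in kb with the left arm negative, for 13 TAQed strains and WT14 (black). Strain 81 (red) stands between 0.46 and 0.74 over most of the right arm, strain 117 (blue) near -1.18 at the right end, and strain 107 (orange) at 0.45 at the left end. Of the 10 other TAQed strains 8 are highest in the middle and lowest near an end. Strain 113 is also highest in the middle, but its lowest bin lies between 950001 and 1000000. Strain 97 is flat, and WT14 stays between -0.03 and 0.04.

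The arch was measured as the median of the 2941 positions more than 250 kb from both ends minus that of the 788 positions within 100 kb of an end, a measure chosen after the profiles were seen. It was positive in 10 of 10 TAQed strains without a long changed stretch, with strain 97 lowest at 0.01, a median of 0.14 and strain 106 highest at 0.35. WT14 had -0.02. The mean of the 10 strains was 0.16 ± 0.11 (SD), which did not pass the exact two-sided permutation test against the 1 WT14 array (p = 0.273, smallest possible p = 0.0909). The 4 such strains on slide 1 ranged from 0.10 to 0.17 and the 6 on slide 2 from 0.01 to 0.35. The same measure on the 9 other chromosomes with at least 500 middle positions had a median per strain between -0.03 and 0.28, and chromosome XV lay above that median in 10 of 10 strains. In each of these strains 1 or 2 of the 9 other chromosomes lay above chromosome XV, and in WT14 8 of 9 did. The measure was above 0 on 3 of the 9 in strains 97 and 113, on 8 or 9 of them in the other strains and on 1 in WT14. The 9 were not freed of chromosomes with changed stretches, and single ones reached 0.84 in strain 84, 0.68 in strain 106 and -0.47 in strain 101.

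**Figure D3:**
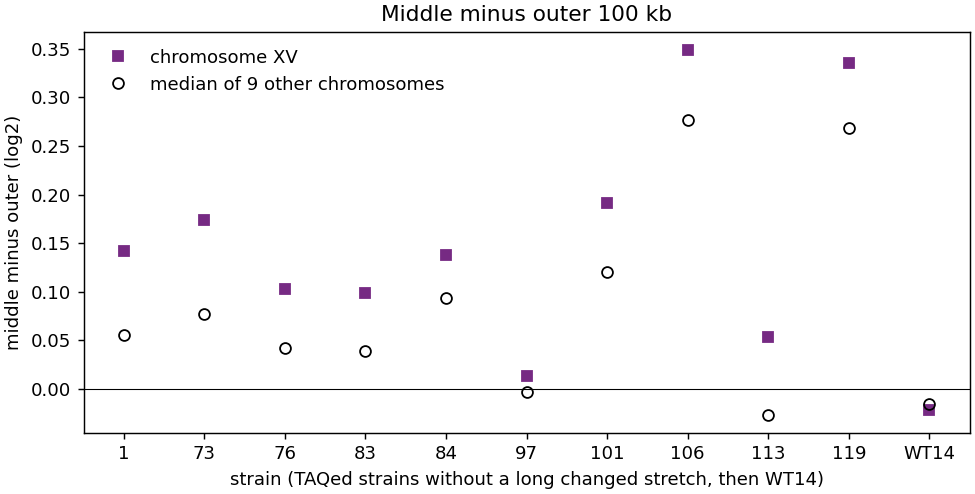
Middle minus outer median log2 ratio for chromosome XV (squares) and the median of 9 other chromosomes (open circles) in the 10 TAQed strains without a long changed stretch and in WT14. Chromosome XV reached 0.35 in strain 106 and 0.34 in strain 119, and lay at 0.01 in strain 97 and -0.02 in WT14.

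Segmentation divided the array positions of each strain into stretches of one level, and a stretch was called gained above 0.3 and lost below -0.3. Over the 13 TAQed arrays 7 segments were called on chromosome XV, and they formed 3 long regions of at least 20 kb, 1 each in strains 81, 107 and 117. The remaining called segment was a short one in strain 73. WT14 had 1 segment over the whole chromosome, at 0.00, and no call. Each region was chosen on the array it is described for, so the values that follow have no test.

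Strain 81 had gained most of the right arm. The gained stretch ran from 414470 to the last position read at 1071114, over 657 kb and 3247 array positions, which are 88.0% of the right-arm positions. The boundary lay 87.8 kb right of the centromere, so the centromere itself and the left arm were outside the gain. The median was 0.65 in strain 81, with an interquartile range over positions from 0.51 to 0.79. It was 0.15 when the background was corrected by normexp, whose offset was 50, and the stretch was then not called. The other 12 TAQed strains lay between -0.01 and 0.09 over the same positions, and WT14 lay at -0.01. The median of strain 81 equals a 1.57-fold ratio.

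The boundary of strain 81 fell within a few array positions. The position starting at 414184 had 0.25 in strain 81, against -0.12 to 0.19 in the other TAQed strains and -0.15 in WT14. The next, starting at 414470, had 0.39 in strain 81, against -0.19 to 0.07 in the other TAQed strains and -0.12 in WT14, and the third inside, starting at 414823, had 1.06 in strain 81 and -0.22 in WT14. Medians over 20 kb on both sides differed by 0.64 (right minus left, 104 and 105 positions). The same step was between -0.04 and 0.07 in the other 12 TAQed strains and -0.02 in WT14. Single positions on this dim array scattered more widely than on the others, so the place of the boundary rests on the fit to many positions.

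The gain of strain 81 was not level along the arm. Its segments were 0.70 from 414470 to 861184 and 0.53 from 861137 to 1071114, and over the 13 bins of 50 kb past 450000 it reached 0.74 at its highest and 0.46 at the right end. The 10 TAQed strains without a long region had a median over the same bins of 0.09 at the highest and -0.14 at the lowest. Taken bin by bin, strain 81 minus that median stayed between 0.59 and 0.67, a range of 0.07, where strain 81 by itself had a range of 0.28. The fall toward the right end thus ran parallel to the arch of the other strains, and no second boundary stood out within the gain in these bins. Bins of 50 kb cannot show a short interruption, and the 10 positions from 970860 to 976995 had only 0.25 in strain 81. On the left arm, where it was not called, strain 81 had the lowest level of the 14 arrays.

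**Figure D4:**
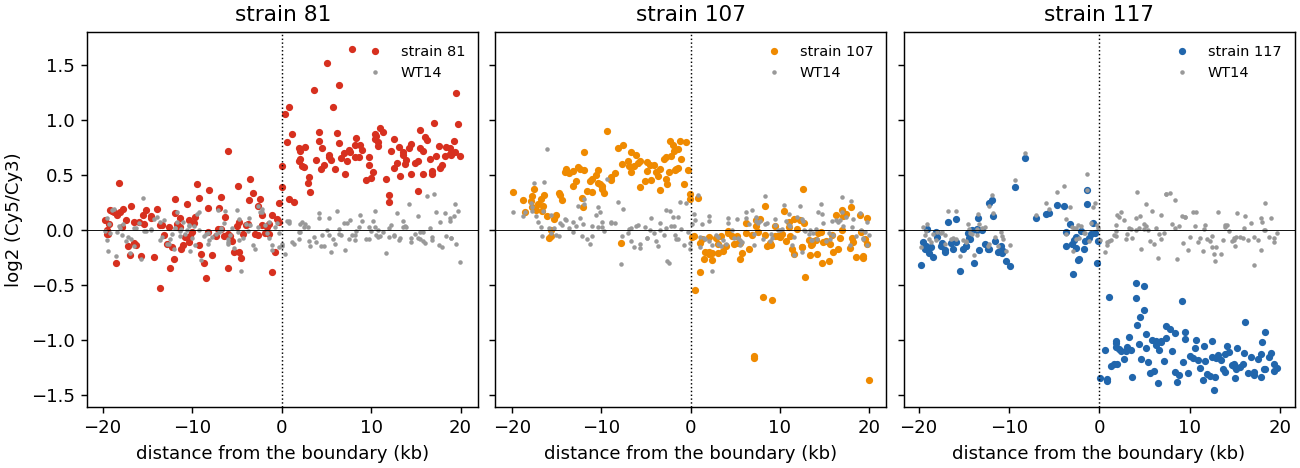
Log2 ratio of Cy5 over Cy3 of single array positions within 20 kb of the inner boundary of the changed stretch in strains 81, 107 and 117 (colored) and of the same positions on the WT14 array (grey). The step (right minus left) was 0.64 in strain 81, -0.57 in strain 107 and -1.05 in strain 117, and in WT14 it was -0.02, -0.03 and 0.01 at these places.

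Strain 117 had lost the distal right arm. The loss ran from 980207 to the last position read at 1071114, over 90.9 kb and 461 positions, 12.5% of those on the right arm, and began 111 kb from the right chromosome end. The median was -1.18 in strain 117, with an interquartile range from -1.28 to -1.05, and 0 of its positions had a ratio above 0. Over the same positions the other TAQed strains lay between -0.23 and -0.01 apart from strain 81, which is gained there, at 0.50, and WT14 lay at 0.00. Measured against the median of the 10 strains without a long region, strain 117 stood at -1.08 between 1000001 and 1050000 and at -1.03 in the rightmost bin.

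The boundary of strain 117 was sharp at the spacing of the array. The last position outside, starting at 979971, had -0.10 in strain 117 and 0.02 in WT14, and the first inside, starting at 980207, had -1.35 in strain 117 and -0.09 in WT14. The 20 kb medians differed by -1.05 in strain 117 (right minus left, 103 and 74 positions). They differed by between -0.05 and 0.01 in the other 12 TAQed strains and by 0.01 in WT14. At the distal edge a segment of 10 positions from 1069069 to 1071114 stood at -0.79 in strain 117, shallower than the rest of the loss.

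Positions within the loss were unequal. After the median of the other TAQed strains and a running median over 51 positions were taken off, 38 of 461 positions in the lost stretch of strain 117 stood more than 0.3 above their neighbours and 13 more than 0.3 below. On the other 4745 positions of chromosome XV in the same strain 1 stood above and 5 below. Over all nuclear positions of the 13 TAQed arrays 0.963% stood above and 0.743% below by this measure, with 8.37% above and 4.27% below on the dim array of strain 81. Strain 117 itself had 0.546% above and 0.235% below over all nuclear positions.

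Strain 107 had gained the distal left arm. The gain ran from the first position read at 20253 to 47262, over 27.0 kb and 113 positions, and ended 279 kb left of the centromere. The median was 0.49 in strain 107. The other 12 TAQed strains lay between -0.29 and 0.09 over these positions, with strain 106 lowest and strain 113 highest, and WT14 lay at 0.04. The SD over the other 12 strains was 0.11 at this left end, against 0.03 over the stretch gained in strain 81.

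The gain of strain 107 had an interruption. The segment from 20253 to 22452 stood at 0.68 and that from 33132 to 47262 at 0.54, while the 32 positions between 22744 and 32868 stood at 0.19. On those 32 positions the other TAQed strains ranged from -0.33 in strain 106 to 0.17 in strain 83, with a median of -0.10, and WT14 had 0.09. Strain 107 was therefore 0.29 above the median of the other strains in the interrupting piece, against 0.68 and 0.65 in the pieces on either side. It was the highest of the 14 arrays in all 3 pieces. With at least 20 positions per segment in place of 10, the left end of strain 107 no longer formed a region of 20 kb, and 2 long regions remained.

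The right boundary of this gain was clear. The last position inside, starting at 47203, had 0.28 in strain 107, against -0.17 in WT14, and the first outside, starting at 47365, had -0.07 in strain 107, against 0.06 in WT14. The 20 kb medians differed by -0.57 in strain 107 (right minus left, 102 and 92 positions). They differed by between -0.05 and 0.03 in the other 12 TAQed strains and by -0.03 in WT14.

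Just right of that boundary, strain 107 carried a stretch of single low positions without a change in level. The segment from 47365 to 137440 had a median of -0.07 in strain 107, within the range of -0.19 to 0.00 in the other TAQed strains, and WT14 had 0.01. Within 90 kb of the boundary 37 of 441 positions stood more than 0.3 below their neighbours in strain 107, and from 90 to 250 kb 0 of 815 did. The first 34 lay between 47777 and 117712, among 366 positions. In the same 366 positions the array of strain 81 had 16, the other 11 TAQed strains had 4 in all, with 0 in 8 of them, and WT14 had 0. On the array of strain 107, 0.314% of all nuclear positions stood that low. The stretch was found on the array of strain 107, so these counts are a description.

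The depth of these low positions varied. In strain 107 the position starting at 104846 had -1.52, against 0.00 as the median of 11 other strains and 0.07 in WT14. The position starting at 67184 had -1.36 in strain 107, against -0.10 in the median of the others and -0.04 in WT14, and that starting at 117653 had -1.57, against -0.17 and -0.11. Of the 34 positions 8 lay below -1 in strain 107, and their median was -0.61, against -0.11 in the others and -0.01 in WT14. For 33 of the 34 positions strain 107 lay below all of 11 other TAQed strains, strain 81 left out. The 34 were chosen as low in strain 107 once the median of the other TAQed strains was taken off. These contrasts with the other strains therefore follow largely from that choice and are a description. The low positions were scattered among unchanged ones, with a median spacing of 1.43 kb and a largest gap of 7.09 kb.

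The same deviations in this stretch of strain 107 were described by their width. The stretch was found from these deviations on this array, so the width is a description and no separate support. The width of the central 80% of the deviations was 0.35 within 90 kb of the boundary and 0.16 from 90 to 250 kb, a ratio of 2.16. The ratio was between 0.99 and 1.23 in the other 12 TAQed strains and 1.14 in WT14. Only 5 positions within 90 kb stood more than 0.3 above their neighbours, so the single large departures were mostly downward. The Cy3 signal, which reads WT14 DNA, had a median of 165 at the 34 low positions and 173 over the whole stretch, both on the array of strain 107.

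**Figure D5:**
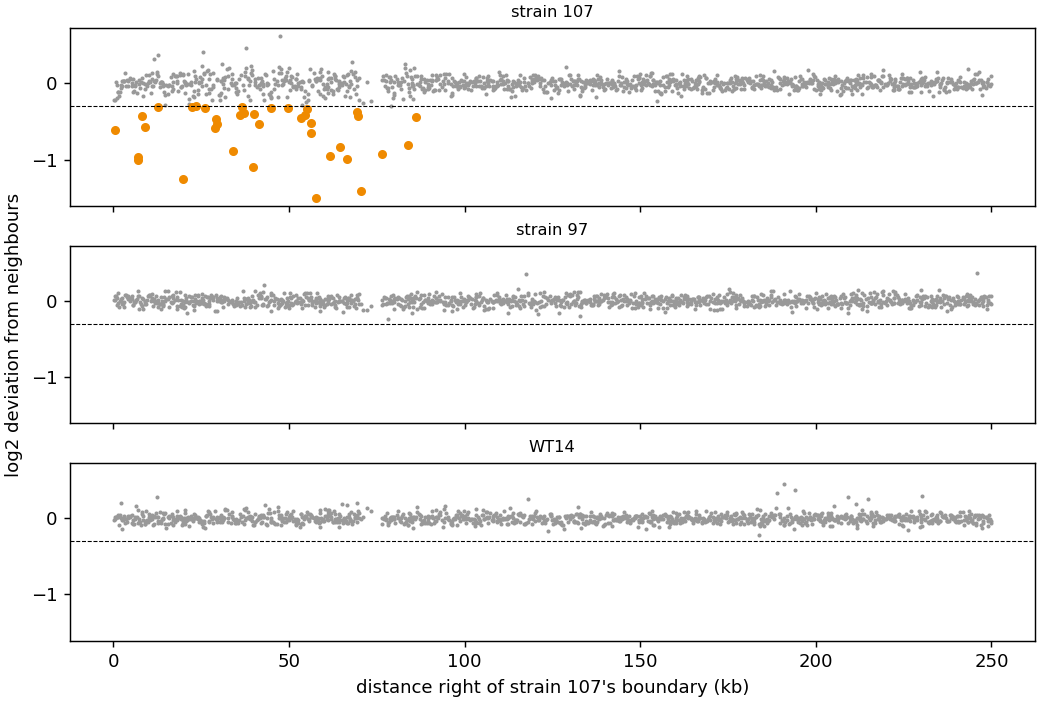
Deviation of single array positions (log2) from the running median of their neighbours, after the median of the other TAQed strains was taken off, by distance right of the boundary of strain 107 in kb, in strain 107, strain 97 and WT14. Orange points lie more than 0.3 below their neighbours (dashed line): strain 107 has 37 within 90 kb and 0 from there to 250 kb, and strain 97 and WT14 have 0.

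A coarser measure of spread, taken as the width of the central 80% of positions in windows of 20 kb, relative to the array's median window, pointed to few windows. On the 13 TAQed arrays 5 windows of chromosome XV exceeded 1.5 times that median, among 53 windows per array, against 2.25% over all nuclear windows. Strain 107 had 2, from 80001 to 100000 at 1.58 times and from 100001 to 120000 at 2.41 times. Strain 117 had 2 within its loss, at 1.77 and 1.89 times, and strain 106 had 1, from 960001 to 980000 at 1.61 times. WT14 had none, with 1.26 times at its widest.

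Called windows of 2 kb lay mainly in the same strains. On chromosome XV 360 of 6734 windows in the 13 TAQed arrays, 5.35%, lay above 0.3, against 4% over all nuclear windows, and 70, or 1.04%, lay below -0.3, against 3.66%. Of the gained windows 320 belonged to strain 81 and 11 to strain 107, and of the lost windows 47 belonged to strain 117 and 19 to strain 106. WT14 had 1 gained and 0 lost windows on chromosome XV, where 0.161% and 0.0715% of its nuclear windows were gained and lost. Without strain 81 the gained windows numbered 40, and without strain 117 the lost windows numbered 23. Among the 16 chromosomes, chromosome XV ranked 4th in the share of gained windows and 11th in the share of lost ones.

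The other 10 TAQed strains had few called windows on chromosome XV apart from strain 106. They had between 1 and 5 gained windows each, 0.502% of windows in all, where 4.04% of all nuclear windows of the same strains were gained. Lost windows made up 0.425% on chromosome XV and 3.34% over all nuclear windows. They numbered 22, between 0 and 19 per strain, with 19 in strain 106, and without that strain they made up 0.0644% on chromosome XV. All 19 distinct lost windows lay within 100 kb of an end. At a threshold of 0.2 the long regions numbered 6, since both ends of strain 106 and the right end of strain 119, the strains with the strongest arch, then counted as lost.

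No window of chromosome XV passed a test of the TAQed strains against WT14 as groups. The limma fit covered 5839 windows, 518 of them on chromosome XV, with an adjusted p under 0.05 as the limit. How many windows of chromosome XV had an unadjusted p under 0.05 depended on the setting. The estimates, TAQed minus WT14, ran from -0.23 to 0.21, and 325 of 518 were above 0. Without strain 81 the estimates ran from -0.28 to 0.15, and with normexp correction from -0.32 to 0.17. With slide as a block, and on slide 1 alone, they ran from -0.16 to 0.30. No window of chromosome XV passed after adjustment by Benjamini-Hochberg in these fits. With a single control array this fit takes the spread of the control from the TAQed strains. How far the 3 single-strain changes added to that spread was not tested.

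One short stretch was high on most arrays, WT14 included. In the window from 970001 to 972000, read by 3 positions, the TAQed strains lay between 0.25 in strain 83 and 0.96 in strain 73, with a median of 0.49, and WT14 was at 0.46. It was above 0.3 in 11 of 13 TAQed strains. No other window of chromosome XV was above 0.3 in WT14. Strain 73 had a called segment of 10 positions over 6.14 kb from 970860 to 976995, at 0.58, the one call on the chromosome outside the long regions. The other 12 TAQed strains lay between 0.07 in strain 83 and 0.35 in strain 106 there, and WT14 lay at 0.23. Strain 81, gained by 0.65 over the surrounding arm, had only 0.25 over these 10 positions. They lie 3.2 kb left of the boundary of strain 117, in which they had 0.15.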

How the data were processed

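The authors deposited one spot table per array from Agilent Feature Extraction 11.0.1.1, whose processed intensity per channel is background-subtracted and dye-normalized, on build sacCer2. The deposited matrix gives the same ratios on the log10 scale for 4210 of the 5206 positions, equal to those of the spot tables within 5e-08.

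The log2 ratio of each spot was recomputed from the processed intensities without loess. The 997 control spots and outlier-flagged spots (0 to 17 per array on chromosome XV) were left out, spots of a position averaged, spans over 100 bases dropped, and each array centred on its nuclear median. Between 0 and 9 positions per array had no value. No spot was saturated, and 1 array per strain limits the precision.

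Segments came from least-squares partitioning (penalty 10 times the noise variance times ln n, at least 10 positions), joined over gaps under 20 kb. Windows of 2 kb held at least 3 positions. Groups were compared by exact permutation and by limma 3.58.1 in R 4.3.3 (Benjamini-Hochberg over all windows). Segmentation and window fits were tested on simulated data. Tables and plots were made in Python 3.11.15. Normexp took the median signals, since mean signals were not used here. Region, lists and tests were chosen with earlier results of these data known. No gene met the naming rule, which asks for a placement on the array's build.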

Additional observations from a re-analysis of the deposited data

Results flagged for a closer look

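The bases left out of the described stretch, read by 5 array positions from 721967 to 722758, carried a signal far above the calling threshold. Their median log2 ratio was 9.03 in strain 113, the highest, and between 5.30 and 9.03 in 12 of 13 TAQed strains, but 0.16 in strain 83, against 0.06 in WT14. The 21 positions within 2 kb of them, which belong to the described stretch, had medians between 0.06 and 0.23 in the TAQed strains other than strain 81, and 0.05 in WT14. Strain 81, gained there, had 0.79. No sample group of 4 to 10 arrays was present in which a single array could be checked against the rest of its group.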

How the results depend on the processing

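Of 182 values recomputed under alternatives, 151 were labelled unchanged, 31 moved and 0 reversed. Levels and steps counted as unchanged within the SD of the other TAQed strains, and counts within a set factor. A fall from 3 to 2 long regions thus counted as unchanged. Differences of arms and of middle minus outer could change label only by sign, since the exact permutation test allows no p under 0.05 there. Slide 1 alone and slide as a block gave the same arm values and were both counted. Normexp correction with an offset of 50, where the median Cy5 signal of strain 81 was 28, gave a gained level of 0.15 and a step of 0.15 in strain 81, a lost level of -0.88 and a step of -0.71 in strain 117, a step of -0.64 in strain 107, 3 called segments, 2 long regions and 34 wide-spread windows, 33 of them in strain 81. The step of strain 107 was -0.52 after loess, -0.62 from the series matrix values and -0.53 with the WT14 array ratio subtracted, and that of strain 81 was 0.68 with means over positions. Wide-spread windows numbered 8 after loess, 11 with the WT14 ratio subtracted, 31 in windows of 10 kb, and 28 and 1 at the lower and the higher limit. Called segments numbered 13 with the WT14 ratio subtracted, 11 at a penalty of 5 times and 4 with at least 20 positions. Lost windows numbered 46 at a margin of 40 kb and 204 at a threshold of 0.2, where the long regions numbered 6. Gained windows numbered 40 without strain 81, lost windows 23 without strain 117, and 26 and 22 were left without strains 81, 107 and 117. Windows of 1 kb gave 701 gained and 158 lost, and those of 5 kb gave 153 and 24, since the number of windows changes with their size. The scattered low positions of strain 107, an analysis added after the data were seen, numbered 17 at a limit of 0.5 and between 30 and 45 otherwise. Right of their stretch the count was 5, but 25 with the WT14 array as the baseline, 26 with normexp or at a limit of 0.2, and 41 with no baseline. Causes were not tested beyond these values. No paired analysis was possible because 13 strains were set against 1 array. The low signal of strain 81 limits single positions there.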

Other observations

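The last 20 kb at each end, which the described stretch leaves out, differed between strains. The 101 positions at the left end had a median of 0.11 in strain 107, whose gain starts at the first position of the stretch, and -0.34 in strain 106, the lowest, against 0.00 in WT14. The 42 positions at the right end had a median of -0.33 in strain 117, shallower than the -1.18 of its loss, and 0.24 in strain 81, against 0.15 in WT14. Strain 106 had -0.18 at the right end, and strains 97 and 113 had 0.14.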
